A study of Mus musculus with 6 samples.

Results

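The genes described here encode 4 ligands of the epidermal growth factor (EGF) family, Areg, Ereg, Hbegf and Tgfa, and 3 receptors of the ErbB family, Egfr, Erbb2 and Erbb3. They were chosen by gene symbol, with earlier results of these data known, and all 7 were among the 11417 genes of the deposited table. Poly(A) RNA was sequenced from 3 untreated mouse mammary cell lines on plastic, BC44, HC11 and C57MG, with 2 libraries per line. Insulin (5 µg/ml) and 10% serum in RPMI1640 made up the medium of BC44. HC11 had that medium plus EGF at 10 ng/ml. C57MG was kept in DMEM, also with 10% serum, and its insulin was at 10 µg/ml. All were harvested 2 days after plating. EGF was listed for HC11 only, so line, medium and added EGF cannot be told apart in any comparison with HC11. Between BC44 and C57MG, line cannot be told apart from medium and insulin dose. The labels do not say whether a line is 1 clone or whether replicates were separate cultures, so p-values measure only the spread between these libraries.

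EGF family ligands are made as membrane-anchored precursors, and proteases release the soluble growth factor from the cell surface. Areg, Tgfa and EGF itself bind Egfr, while Hbegf and Ereg bind Egfr and Erbb4. Erbb2 has no known ligand of its own and works as a dimer partner, and Erbb3 binds neuregulins, has little kinase activity and signals through its partners. In the mammary gland, Areg is known as the ligand through which oestrogen drives growth of the ducts at puberty.

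Values are RPKM, the authors' read numbers divided by gene length and by the library's total reads, so levels of different genes can be set side by side. Estimated depth was 14260000 to 18470000 reads per library, and 9706 to 9895 genes reached 1 RPKM, depending on the library. C57MG is labelled mammary epithelial, but Epcam, Cdh1 and Esrp1, which define epithelium, were at 0.949, 1.09 and 0.439 RPKM in its replicate 1 and listed at 0 in its replicate 2. The 11 listed mesenchymal markers summed to 7378 and 7146 RPKM in C57MG, against 259 to 382 RPKM in the other libraries. Dcn went the other way, with means of 0 RPKM in C57MG and BC44 and 2.73 RPKM in HC11. The 11 listed epithelial markers summed to 167 and 83.8 RPKM in C57MG, and to 3552 to 6987 RPKM in the others. In C57MG, Krt14 was at 118 and 64.8 RPKM, Krt17 at 24.7 and 11.4, Krt5 at 16.0 and 0.148, and Trp63 at 5.86 and 6.98. Each of these was lower there than in both other lines. In BC44, Krt18 and Cldn3 were listed at 0 and Krt8 was at 0.038 and 0.064 RPKM. Of 7 immune, endothelial and adipocyte markers, 3 were listed, none above 3.30 RPKM. In bulk RNA, fewer cells of a type and less RNA per cell cannot be told apart.

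For all 4 ligands HC11 held more RNA than either other line, and Egfr was the member that passed in no comparison. Differences of log2(RPKM + 1) were tested by limma, a linear model with a spread shared across genes, and p-values were adjusted by the Benjamini-Hochberg method over all 10759 tested genes. All 7 members passed the filter on low values. Between BC44 and HC11, 5 of 7 members had an adjusted p-value under 0.05, where 47.7% of all tested genes did. Of the 5, 4 were higher in HC11 and 1 in BC44, where 23.0% and 24.7% of all genes were called in these directions. Between BC44 and C57MG 6 of 7 passed (71.7% of all genes), where 4 were higher in BC44 (37.5% of all genes) and 2 were higher in C57MG (34.1%). For HC11 and C57MG 6 of 7 passed (70.5% of all genes), with 6 higher in HC11 (37.4%) and 0 in C57MG (33.2%). The libraries of the lines did not overlap for 6, 7 and 6 of the members in the 3 comparisons, where 73.0%, 87.9% and 86.2% of all genes did not. So many genes differed among these lines that the counts alone do not set the members apart. Taken without sign, the median difference of the 7 was 1.54, 1.49 and 1.54 on the log2 scale, against 0.30, 0.57 and 0.53 over all tested genes. The members were chosen with earlier results of these data known, so this larger median is a description and does not set them apart. The comparisons share libraries of each line, so they are not independent of each other.

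**Figure D1:**
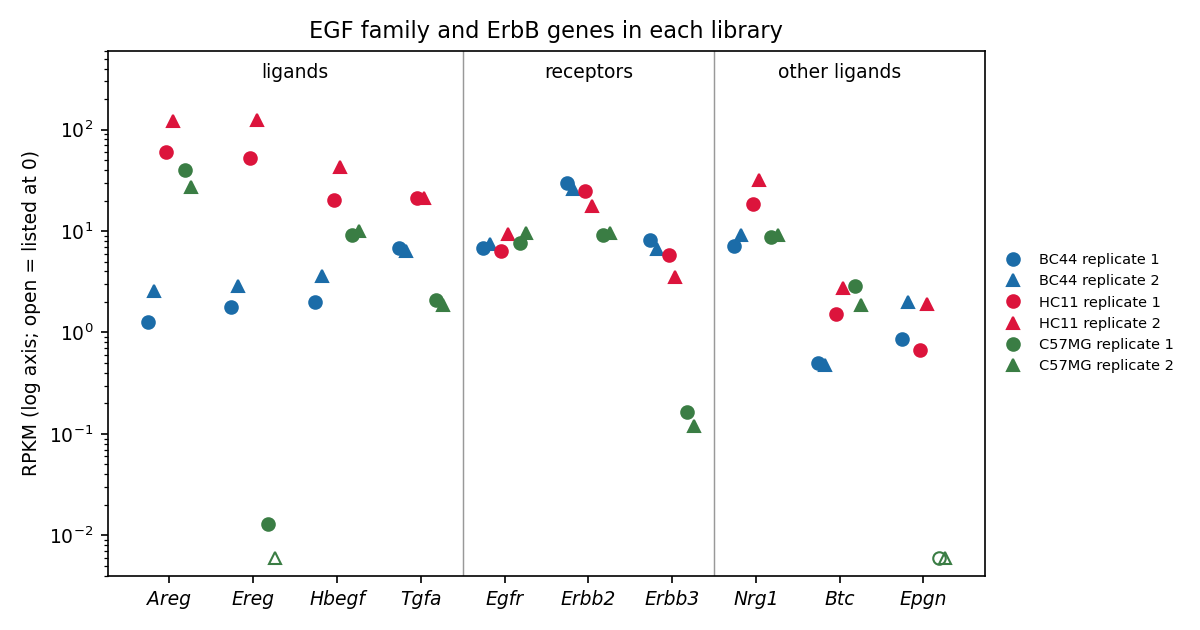
RPKM on a log axis for each of the 7 members and the 3 other listed family ligands, with 1 point per library (circles replicate 1, triangles replicate 2, colours the lines, open symbols values listed at 0). HC11 is highest for Areg, Ereg, Hbegf and Tgfa, the 6 Egfr points lie together between 6.42 and 9.59 RPKM, and C57MG is low for Ereg, Erbb3 and Epgn.

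Areg encodes amphiregulin, a heparin-binding ligand of Egfr. It was at 1.26 and 2.58 RPKM in BC44, 59.8 and 120.6 RPKM in HC11, and 40.0 and 27.5 RPKM in C57MG. The libraries of the 3 lines did not overlap, in the order HC11, C57MG, BC44. The mean of HC11 was 47.0 times and that of C57MG 17.6 times that of BC44. On the log2 scale HC11 was higher than BC44 by 4.92 (SE 0.35, limma adjusted p-value 3.62e-05) and C57MG was higher than BC44 by 3.59 (SE 0.35, adjusted p-value 5.83e-05). HC11 was higher than C57MG by 1.33 (SE 0.35, adjusted p-value 0.0111), and this smaller difference rested on single libraries. Without C57MG replicate 2 it was 1.07 and did not pass (limma adjusted p-value 0.0525), and without HC11 replicate 2 it was 0.83 (0.0435).

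Ereg encodes epiregulin, a ligand of Egfr and Erbb4, and lies beside Areg on chromosome 5. It was at 1.77 and 2.85 RPKM in BC44, 52.3 and 125.8 RPKM in HC11, and 0.013 and 0 RPKM in C57MG. In HC11 its level was close to that of Areg, with Ereg at 0.876 and 1.04 times Areg in replicates 1 and 2, and in BC44 the ratio was 1.41 and 1.11. In C57MG, which had the middle level of Areg, an estimated 1 read of Ereg was present in replicate 1 and none in replicate 2. The neighbouring ligands were thus both high in HC11 and both low in BC44, and parted in C57MG. The mean of HC11 was 38.5 times that of BC44 (log2 4.65, SE 0.36, limma adjusted p-value 5.45e-05). With 1 read in C57MG as the base, HC11 was 12313 times higher (95% exact Poisson interval 2210 to 486318, covering the counting error of that read only). Ereg was also higher in BC44 than in C57MG, by 1.70 (SE 0.36, limma adjusted p-value 0.00383), and in HC11 than in C57MG by 6.35 (SE 0.36, 3.78e-06). These 2 sizes depend on the value of 1 added before the log, and with 0.1 added they were 4.47 and 9.58.

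Epgn, Ereg, Areg and Btc follow each other in this order among the listed genes of chromosome 5, and all encode EGF family ligands. Epgn, the epithelial mitogen epigen, was at 0.855 and 1.99 RPKM in BC44, 0.673 and 1.90 RPKM in HC11, and listed at 0 in both C57MG libraries. BC44 and HC11 overlapped for Epgn (log2 0.09, SE 0.29, 95% interval -0.58 to 0.77, limma adjusted p-value 0.811). Against a floor of 3 reads per library in C57MG, BC44 held at least 14.2-fold higher Epgn, and HC11 at least 12.9-fold higher (limma adjusted p-values 0.00594 and 0.00905). These limits rest on replicate 2 of each line, and with replicate 1 alone they were 8.56-fold and 6.74-fold. Btc, betacellulin, which binds Egfr and Erbb4, was at 0.499 and 0.478 RPKM in BC44, 1.53 and 2.74 RPKM in HC11, and 2.87 and 1.87 RPKM in C57MG. BC44 was lower than HC11 by 1.05 (limma adjusted p-value 0.00486) and lower than C57MG by 1.16 (0.00150), while HC11 and C57MG overlapped (-0.11, 95% interval -0.60 to 0.37, 0.643). Across the cluster, then, Areg and Btc were low in BC44 alone, and Ereg and Epgn were near 0 in C57MG alone.

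The upstream sequences of this cluster are shown because its neighbouring ligands differed in pattern among the lines. RefSeq's promoter table (build GRCm38.p6) matched 4 of the 7 members, Areg, Tgfa, Egfr and Erbb2, and also Epgn and Btc. Each sequence is the 250 bases before the annotated start, 5′ to 3′ on the gene's strand, with matches to the searched motifs in capitals. The authors' build was mm9, so these positions belong to the RefSeq sequence and not to the deposited values. The windows are chr5:91139349-91139598 (plus strand) for Areg, chr5:91027267-91027516 (plus strand) for Epgn and chr5:91402995-91403244 (minus strand) for Btc.
Areg: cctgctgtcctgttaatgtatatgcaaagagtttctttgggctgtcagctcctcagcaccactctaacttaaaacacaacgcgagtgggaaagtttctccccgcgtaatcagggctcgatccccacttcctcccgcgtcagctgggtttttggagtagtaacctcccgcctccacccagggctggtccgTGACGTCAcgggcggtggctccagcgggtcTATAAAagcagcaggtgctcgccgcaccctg
Epgn: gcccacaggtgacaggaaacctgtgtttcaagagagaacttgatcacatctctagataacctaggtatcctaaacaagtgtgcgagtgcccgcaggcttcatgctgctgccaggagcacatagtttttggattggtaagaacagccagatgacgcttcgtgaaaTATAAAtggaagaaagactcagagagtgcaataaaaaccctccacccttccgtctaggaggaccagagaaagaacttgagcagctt
Btc: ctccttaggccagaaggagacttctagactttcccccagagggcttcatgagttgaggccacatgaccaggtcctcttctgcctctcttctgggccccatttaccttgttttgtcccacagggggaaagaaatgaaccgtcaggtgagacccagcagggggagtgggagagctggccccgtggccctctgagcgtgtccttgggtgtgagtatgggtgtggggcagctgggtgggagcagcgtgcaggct
The motifs searched on both strands were AP-1 (TGANTCA), CRE (TGACGTCA), GRHL (AACCNGTT), the TATA box (TATAAA) and ETS (CCGGAAGT). Areg held a CRE match whose first base lies 61 bases before the start and a TATA box match 31 bases before it, and the 2 matches do not overlap. Epgn held a TATA box match 86 bases before its start, and these letters were not in the Btc window. A CRE match is found in 1.55% and a TATA box match in 12.4% of the 32851 mouse windows of this length, and AP-1, GRHL and ETS matches in 6.75%, 1.79% and 2.88%. The windows of Tgfa, Egfr and Erbb2 held none of the 5 motifs, and their GC content was 69.2%, 60.8% and 66.0%, against a median of 52.4%. A match is a description of the letters and does not show that a factor binds.

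Hbegf encodes the heparin-binding ligand of Egfr and Erbb4. It was at 2.02 and 3.65 RPKM in BC44, 20.5 and 42.7 RPKM in HC11, and 9.09 and 10.0 RPKM in C57MG. The libraries did not overlap and fell in the same order as for Areg, HC11 over C57MG over BC44. HC11 was higher than BC44 by 3.03 (SE 0.33, limma adjusted p-value 0.000279), a ratio of means of 11.1, and higher than C57MG by 1.54 (SE 0.33, 0.00396). C57MG was higher than BC44 by 1.49 (SE 0.33, limma adjusted p-value 0.00435). Without HC11 replicate 2, the difference between HC11 and C57MG fell to 1.02 and still passed (0.00739).

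Tgfa encodes transforming growth factor alpha, a ligand of Egfr. It was at 6.84 and 6.38 RPKM in BC44, 21.0 and 21.4 RPKM in HC11, and 2.08 and 1.89 RPKM in C57MG. Replicates lay close together and the lines did not overlap, in the order HC11, BC44, C57MG. HC11 was higher than BC44 by 1.54 (SE 0.10, limma adjusted p-value 2.08e-05), and BC44 was higher than C57MG by 1.35 (SE 0.10, 1.10e-05). HC11 was higher than C57MG by 2.90 (SE 0.10, limma adjusted p-value 3.71e-07), a ratio of means of 10.7. Tgfa thus placed BC44 above C57MG, the reverse of Areg and Hbegf.

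The ligand that held the largest share of the 4 differed among the lines. In BC44 the 4 summed to 11.9 and 15.5 RPKM, of which Tgfa made up 57.6% and 41.3%. In HC11 they summed to 153.5 and 310.5 RPKM, of which Areg made up 38.9% and 38.8% and Ereg 34.1% and 40.5%. In C57MG they summed to 51.2 and 39.4 RPKM, and Areg alone made up 78.1% and 69.8%. Tgfa was the leading ligand RNA in BC44 only, Areg and Ereg shared HC11, and Hbegf stayed between 13.3% and 25.5% in all 6 libraries. For the 3 receptors the sums were 44.8 and 40.4 RPKM in BC44, 36.9 and 30.6 RPKM in HC11, and 16.9 and 19.4 RPKM in C57MG. The summed ligands were therefore below the summed receptors in BC44 (0.265 and 0.383 times) and above them in HC11 (4.17 and 10.2 times) and in C57MG (3.02 and 2.03 times). These ratios compare RNA levels per length and were not tested. They also depend on the genes summed. Erbb2, which has no known ligand, made up 66.6% and 65.1% of the receptor sum in BC44. Erbb3, which binds neuregulins, is also in that sum, while Nrg1 is not among the 4 ligands. Egfr alone was at 6.82 and 7.39 RPKM in BC44, below the ligand sums of 11.9 and 15.5 RPKM there.

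**Figure D2:**
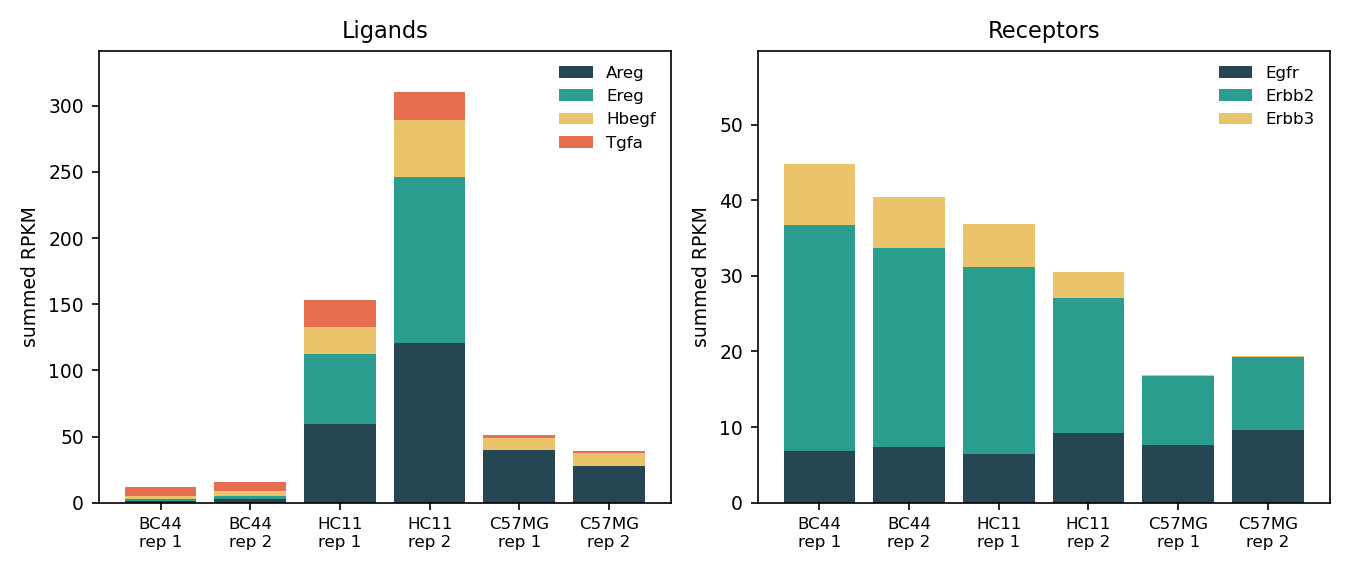
Stacked bars of RPKM per library for the 4 ligands (left) and the 3 receptors (right), each from 0 and on its own axis. The ligand bars reach 153.5 and 310.5 RPKM in HC11 and stay at or below 51.2 RPKM elsewhere, while the receptor bars lie between 16.9 and 44.8 RPKM, with Erbb2 the largest part in every library.

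Egfr encodes the receptor that all 4 of these ligands bind. It was at 6.82 and 7.39 RPKM in BC44, 6.42 and 9.26 RPKM in HC11, and 7.69 and 9.59 RPKM in C57MG. HC11 overlapped both other lines, and C57MG lay just above BC44. No difference passed: BC44 minus HC11 was -0.11 (95% interval -0.51 to 0.30, limma adjusted p-value 0.644), and BC44 minus C57MG was -0.24 (-0.65 to 0.16, 0.235). HC11 minus C57MG was -0.14 (95% interval -0.54 to 0.27, limma adjusted p-value 0.498). The intervals allow differences of up to 0.65 on the log2 scale, so equal levels were not shown. While Egfr varied between 6.42 and 9.59 RPKM, Areg stood at 0.184 and 0.349 times Egfr in BC44, 5.20 and 2.86 times in C57MG, and 9.31 and 13.0 times in HC11.

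Erbb2 encodes the ligandless dimer partner. It was at 29.9 and 26.3 RPKM in BC44, 24.7 and 17.8 RPKM in HC11, and 9.09 and 9.66 RPKM in C57MG. The lines did not overlap, and C57MG was lowest. BC44 was higher than C57MG by 1.48 (SE 0.15, limma adjusted p-value 6.91e-05) and HC11 was higher than C57MG by 1.08 (SE 0.15, 0.000427). Between BC44 and HC11 the difference of 0.40 (95% interval 0.05 to 0.75) had a limma adjusted p-value of 0.0623. It passed in 2 of 15 alternatives, 1 of them without HC11 replicate 1 (0.63, 0.00500). Erbb2 stood at 4.38 and 3.56 times Egfr in BC44, 3.85 and 1.92 times in HC11, and 1.18 and 1.01 times in C57MG, so the RNAs of these 2 receptors were near each other in C57MG only.

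Erbb3 encodes the neuregulin receptor. It was at 8.13 and 6.73 RPKM in BC44, 5.75 and 3.52 RPKM in HC11, and 0.166 and 0.119 RPKM in C57MG. Erbb3 was low in C57MG, where the values rest on an estimated 18 and 11 reads. From those reads, BC44 was 51.6 times (95% exact Poisson interval 35.9 to 77.0) and HC11 32.2 times (22.4 to 48.0) above C57MG, covering the counting error in C57MG only. On the log2 scale the differences were 2.88 and 2.27 (SE 0.19 each, limma adjusted p-values 6.91e-06 and 2.84e-05), and 4.96 and 4.25 with 0.1 added before the log in place of 1. BC44 was higher than HC11 by 0.61 (SE 0.19, limma adjusted p-value 0.0339), a call that 3 single libraries decided. It did not pass without BC44 replicate 1 (0.49, 0.177), without BC44 replicate 2 (0.73, 0.0670) or without HC11 replicate 2 (0.32, 0.117). It also did not pass with 0.1 added (0.71, 0.0682) or when limma was fitted to only the 4 libraries compared (0.61, 0.0606).

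**Figure D3:**
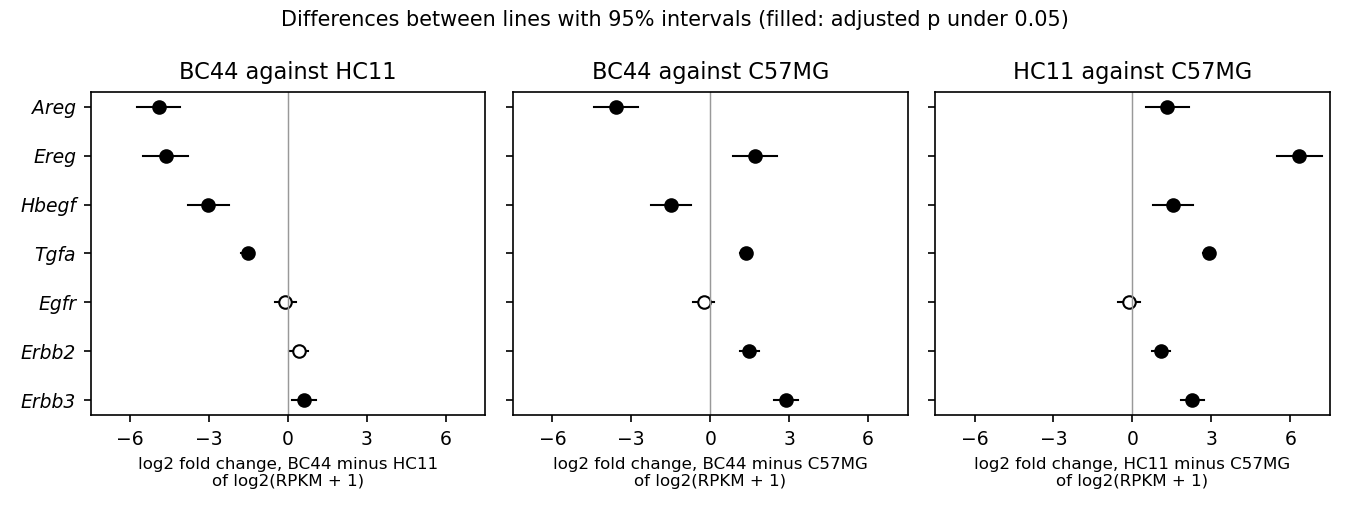
Log2 fold changes of the 7 members in the 3 comparisons with 95% intervals from limma, on the log2(RPKM + 1) scale, where filled points have an adjusted p-value under 0.05. The intervals of Egfr include 0 in all 3 panels, the 4 ligands lie on the HC11 side in both panels with HC11, and Areg and Hbegf lie opposite to Ereg and Tgfa in BC44 against C57MG.

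Low values in 1 line can hold signal of another, and this was measured beside the members. Of 5 mesenchymal markers high in C57MG, Vim, Col1a1 and Pdgfrb were in BC44 at 0.609% to 0.629% of their C57MG mean in replicate 1 and at 1.90% to 2.03% in replicate 2. Col1a2 was higher, at 1.71% and 3.08%, and Col3a1 higher still, at 6.62% and 10.6%. Areg in BC44 was at 3.72% and 7.65% of its C57MG mean, above 4 of these 5 markers and below Col3a1 in both libraries. The 5 are a part of the listed mesenchymal markers, so this count does not cover the whole list. For Pdgfra and Fn1, means in BC44 and C57MG were 0.97 and 17.5 RPKM, and 234 and 659 RPKM. Zeb1 was at 0.49 and 10.9 RPKM, S100a4 at 65.6 and 3739 RPKM and Twist1 at 0.35 and 29.2 RPKM. Dcn was at 0 in both lines. Subtracting the median share of the 5 markers (0.629% and 2.03%) of the C57MG signal from BC44, a step added after the data were seen, left Areg at 1.04 and 1.90 RPKM there and Hbegf at 1.96 and 3.45 RPKM. BC44 minus HC11 was then -5.14 for Areg and -3.08 for Hbegf (limma adjusted p-values 3.87e-05 and 0.000360), against -4.92 and -3.03 before. The step can only lower BC44 and left HC11 as it was. The larger differences therefore follow from the step itself and are no test of carried signal. Krt18 and Cldn3, which were high in HC11, were listed at 0 in both BC44 libraries, where Areg was at 1.39% and 2.86% and Ereg at 1.99% and 3.20% of their HC11 mean. In C57MG, 8 epithelial markers that reached 1 RPKM in both BC44 libraries were set beside Erbb3, which was at 2.23% and 1.60% of its BC44 mean. Of the 8, 6 lay below Erbb3 in each library: Epcam, Cdh1, Cldn4, Esrp1, Krt5 and Krt17, at 0.688% to 1.32% in replicate 1 and 0 to 0.608% in replicate 2. Krt14 lay above it, at 4.33% and 2.38%, and so did Trp63, at 23.4% and 27.9%. The part of this signal in the low values of Areg and Erbb3 was not tested.

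Among the members, the replicate libraries of HC11 and of BC44 differed most in the same 3 ligands. In HC11, replicate 2 held 2.02 times the Areg, 2.40 times the Ereg and 2.09 times the Hbegf of replicate 1. Differences at least as large on the log2(RPKM + 1) scale were found in 0.762%, 0.428% and 0.706% of the tested genes. In BC44 the ratios of replicate 2 to replicate 1 were 2.06, 1.61 and 1.81, with 0.771%, 2.51% and 0.985% of genes at least as far apart. Tgfa, the remaining ligand, had ratios of 1.02 in HC11 and 0.933 in BC44. Erbb2 and Erbb3 went the other way, with ratios of 0.721 and 0.612 in HC11 and 0.880 and 0.827 in BC44. Egfr, the remaining receptor, went the way of the 3 ligands, with ratios of 1.44 in HC11 and 1.08 in BC44. C57MG did not share the ligand pattern, with Areg at 0.688 and Hbegf at 1.10. With 2 libraries per line this is a description with no test.

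**Figure D4:**
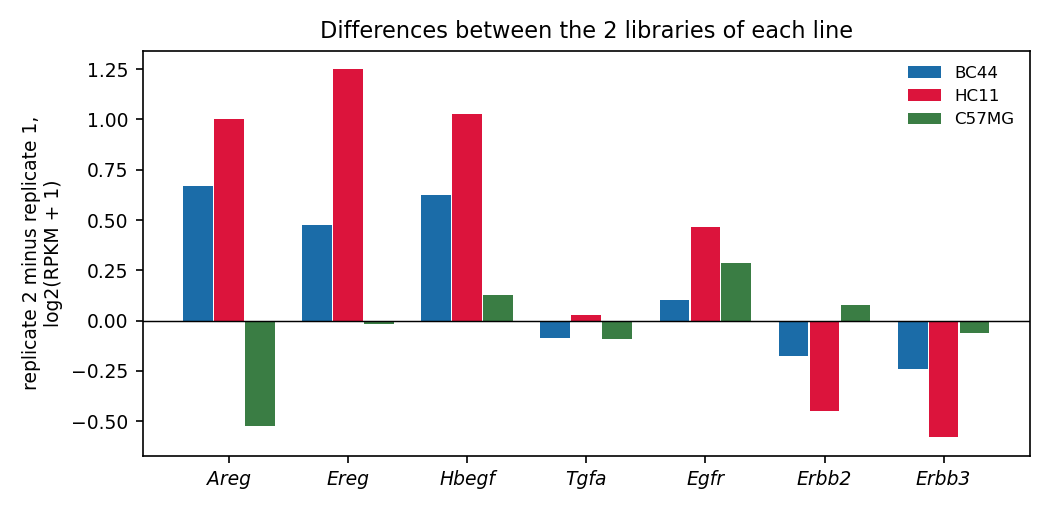
Bars give replicate 2 minus replicate 1 of each member on the log2(RPKM + 1) scale, by line. Areg, Ereg, Hbegf and Egfr are positive in HC11 and BC44, where Erbb2 and Erbb3 are negative, and Areg is negative in C57MG.

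Beyond the members, 3 of 8 other family genes searched were listed: Nrg1, Btc and Epgn. Egf, Nrg2, Nrg3, Nrg4 and Erbb4 were not listed. Of the 3, 2 passed in each comparison. Over all tested genes, 47.7% passed between BC44 and HC11, 71.7% between BC44 and C57MG and 70.5% between HC11 and C57MG. With 3 genes the count does not set them apart from these shares. Nrg1, a neuregulin and so a ligand of Erbb3, was at 7.16 and 9.24 RPKM in BC44, 18.7 and 32.0 RPKM in HC11, and 8.84 and 9.07 RPKM in C57MG. HC11 lay above both other lines, which overlapped each other. Against BC44 it was higher in HC11 by 1.48 (SE 0.23, limma adjusted p-value 0.00161), and against C57MG by 1.36 (SE 0.23, 0.00123). BC44 minus C57MG was -0.12 (95% interval -0.66 to 0.42, limma adjusted p-value 0.648). Of the 7 listed ligand genes, the 4 members and these 3, Nrg1, Areg, Ereg, Hbegf and Tgfa were highest in HC11 in both of its libraries.

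Genes of ligand release include the sheddases Adam17 and Adam10 and their regulators. Of 13 genes 12 were tested, and 10, 10 and 9 passed between BC44 and HC11, BC44 and C57MG, and HC11 and C57MG, where 47.7%, 71.7% and 70.5% of all tested genes did. The last count is near that share. Between BC44 and HC11, 7 were higher in HC11 and 3 in BC44. Rhbdf2 encodes an iRhom, which helps Adam17 mature and act. It was at 6.32 and 4.72 RPKM in BC44, 46.7 and 42.1 RPKM in HC11, and 0.084 and 0 RPKM in C57MG. Its order, HC11 over BC44 over C57MG, was that of Ereg and Tgfa, with log2 differences of 2.81 between HC11 and BC44 and 5.45 between HC11 and C57MG (limma adjusted p-values 6.92e-06 and 1.97e-07). The second value was 8.36 with 0.1 added before the log. Rhbdf1, the other iRhom of the list, did not share this order. Its means were 18.5 RPKM in BC44, 27.1 RPKM in HC11 and 30.4 RPKM in C57MG. HC11 minus C57MG was -0.16 for Rhbdf1 (limma adjusted p-value 0.178).

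Adam17, which sheds Areg, Ereg, Hbegf and Tgfa, varied less. It was at 12.5 and 12.6 RPKM in BC44, 18.9 and 17.4 RPKM in HC11, and 18.7 and 16.9 RPKM in C57MG, and was lower in BC44 than in HC11 by 0.50 (limma adjusted p-value 0.00347). Adam10 was at 31.9 ± 1.86 RPKM in BC44, 84.8 ± 8.92 RPKM in HC11 and 68.6 ± 1.39 RPKM in C57MG (SD, n = 2 each). Adam9 was at 19.1 ± 0.677, 37.5 ± 1.72 and 54.3 ± 0.875 RPKM in the same order of lines. For these 3 metalloproteases BC44 was lowest, and its differences from both other lines passed. This did not hold for the other Adam genes of the list. Adam15 was higher in BC44 than in HC11 by 0.33 (limma adjusted p-value 0.0371). Adam12 did not pass between BC44 and C57MG (limma adjusted p-value 0.0963), and Adam19 was not tested. Adam8 had its lowest mean in BC44, at 15.1 RPKM against 18.3 in HC11 and 18.6 in C57MG. Neither difference of Adam8 from BC44 passed (limma adjusted p-values 0.425 and 0.276). Rhbdl2, a rhomboid protease, was highest in BC44 at 2.46 ± 0.238 RPKM (SD, n = 2), against 0.053 and 0.091 RPKM in HC11. Frmd8, which stabilises iRhoms, was at 18.8 ± 0.245 RPKM in BC44, 16.9 ± 2.15 RPKM in HC11 and 6.45 ± 0.224 RPKM in C57MG (SD, n = 2).

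Of the receptor inhibitors, Lrig1 and Errfi1 differed most between BC44 and HC11, Ptprj and Lrig1 between BC44 and C57MG, and Errfi1 and Ptprj between HC11 and C57MG. Of 12 genes 11 were tested, and 8, 6 and 6 passed in the 3 comparisons in the same order, with 5 of the 8 higher in HC11 than in BC44. Set against 47.7%, 71.7% and 70.5% of all genes, the counts in the comparisons with C57MG were below the share of all genes. Lrig1, a membrane protein that lowers ErbB receptor levels, was at 2.88 and 2.03 RPKM in BC44, 44.03 and 55.53 RPKM in HC11, and 16.8 and 16.9 RPKM in C57MG. In HC11 Lrig1 was higher than in BC44 by 3.88 (SE 0.15, limma adjusted p-value 2.51e-06), and the order of lines was that of Areg and Hbegf. Errfi1, an inhibitor that binds the Egfr kinase and is induced by EGF signalling, was at 16.6 and 20.2 RPKM in BC44, 73.0 and 132.9 RPKM in HC11, and 26.2 and 29.0 RPKM in C57MG. In HC11 Errfi1 was higher than in BC44 by 2.37 (SE 0.25, limma adjusted p-value 0.000236) and than C57MG by 1.80 (SE 0.25, 0.000406). BC44 minus C57MG was -0.56 for Errfi1 (limma adjusted p-value 0.0744), which passed without HC11 replicate 1 (0.00264), without HC11 replicate 2 (0.00269) and in a fit of only the 4 libraries compared (0.00611). Ptprj, a receptor phosphatase, was highest in C57MG at 10.8 ± 0.792 RPKM, against 1.00 ± 0.00212 in BC44 and 2.65 ± 0.334 in HC11 (SD, n = 2 each).

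Genes of receptor ubiquitination and traffic went in both directions. Of 14 tested genes 8, 12 and 9 passed, split 4 and 4 between BC44 and HC11, 7 and 5 between BC44 and C57MG, and 5 and 4 between HC11 and C57MG, with the first-named line first. Over all tested genes 47.7%, 71.7% and 70.5% passed. Without BC44 replicate 2, fewer passed between BC44 and HC11, and the share of all genes in that fit is not given here. Cblc, an epithelial member of the Cbl ubiquitin ligases, was at 5.01 and 4.94 RPKM in BC44 and 5.70 and 6.04 RPKM in HC11, but at 0.044 and 0 RPKM in C57MG. Epn1, an endocytic adaptor, was at 2.86 ± 0.121 RPKM in BC44, 16.8 ± 1.51 RPKM in HC11 and 45.4 ± 0.0559 RPKM in C57MG (SD, n = 2 each). Its 3 differences passed, at 2.20 between HC11 and BC44 and 3.59 between C57MG and BC44 in size (limma adjusted p-values 3.60e-06 and 2.71e-07). Epn2 was lowest in BC44 at 5.11 ± 0.300 RPKM, against 19.7 ± 0.617 in HC11 and 16.7 ± 1.66 in C57MG (SD, n = 2). Sh3kbp1, which links Cbl to endocytosis, was highest in C57MG at 40.0 ± 1.11 RPKM, against 7.60 ± 0.379 in BC44 and 14.0 ± 2.71 in HC11 (SD, n = 2).

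Among 25 adaptors and proximal effectors 22 were tested, and 11, 16 and 16 passed, near the 47.7%, 71.7% and 70.5% of all genes. Between BC44 and HC11 the count was lower without BC44 replicate 1, BC44 replicate 2 or HC11 replicate 1. The share of all genes in those fits is not given here. Grb2, the adaptor that links activated receptors to Ras, was at 39.3 and 39.3 RPKM in BC44, 119.8 and 119.8 RPKM in HC11, and 44.4 and 43.2 RPKM in C57MG. It was higher in HC11 than in BC44 by 1.58 (SE 0.07, limma adjusted p-value 3.60e-06) and than in C57MG by 1.43 (SE 0.07, 1.52e-06). Grb7, an adaptor that binds Erbb2, was at 13.9 and 11.1 RPKM in BC44, 11.8 and 9.001 RPKM in HC11, and 0.033 and 0 RPKM in C57MG. Shc1, another receptor adaptor, was higher in C57MG, at 42.6 ± 0.794 RPKM against 13.7 ± 0.933 in BC44 and 13.4 ± 1.09 in HC11 (SD, n = 2 each). Dok1 and Vav3 were also highest in C57MG, at 35.8 ± 0.791 and 9.53 ± 0.605 RPKM, against 9.56 ± 1.79 and 1.79 ± 0.159 in BC44 (SD, n = 2).

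The 14 genes of the Ras, Raf, ERK and AKT core changed less than the ligands. Of these 8, 8 and 6 passed (47.7%, 71.7% and 70.5% of all genes). The median size of the log2 difference was 0.33, 0.37 and 0.19, against 0.30, 0.57 and 0.53 over all genes. The first count was lower without BC44 replicate 2, where the share of all genes is not given here. Hras was at 62.7 ± 6.74 RPKM in BC44, 35.4 ± 0.468 RPKM in HC11 and 17.98 ± 1.42 RPKM in C57MG (SD, n = 2 each), and all 3 of its differences passed. Mapk3, which encodes ERK1, was lower in BC44 than in C57MG by 0.76 (SE 0.17, limma adjusted p-value 0.00431).

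**Figure D5:**
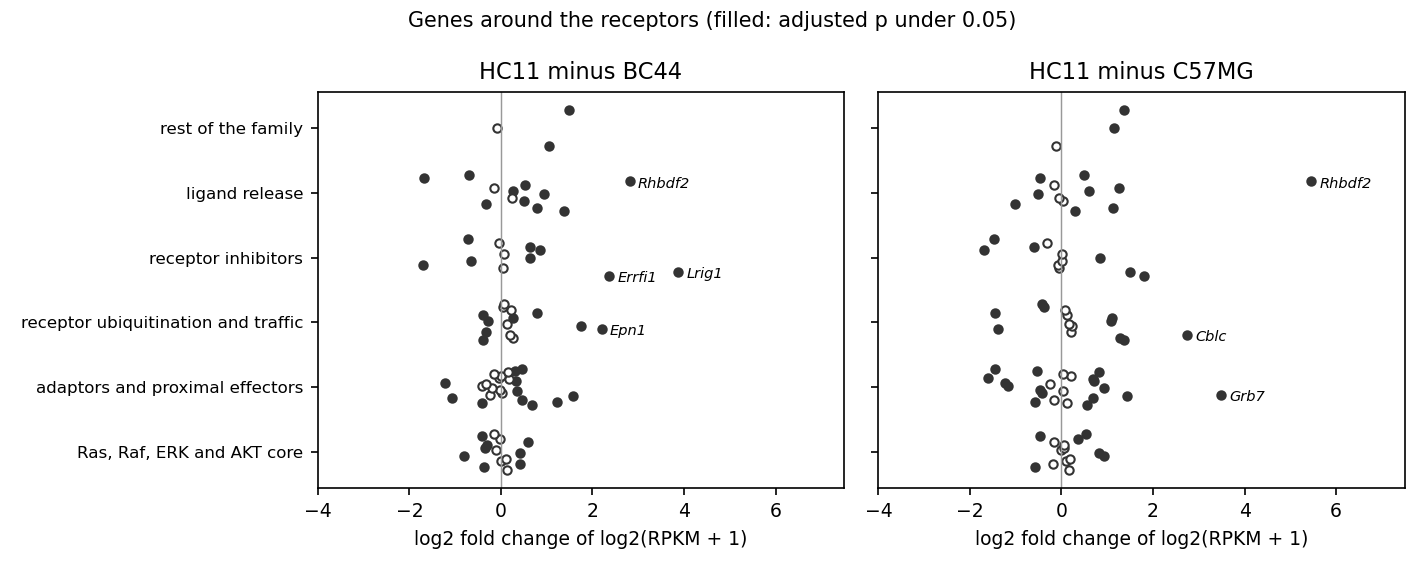
Each point is 1 tested gene of a list, placed by its log2 fold change on the log2(RPKM + 1) scale for HC11 minus BC44 (left) and HC11 minus C57MG (right), filled where the adjusted p-value is under 0.05, with genes beyond 2 named. Rhbdf2, Lrig1, Errfi1 and Epn1 lie farthest toward HC11 on the left, at 2.81, 3.88, 2.37 and 2.20, and in the core list at the bottom the largest difference on the left is that of Hras, 0.80 in size.

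The nearest listed neighbours of the members on their chromosomes gave a further comparison. Erbb2 on chromosome 11 lies between Pgap3 and Mien1, with Grb7 next after Mien1. Mien1 was at 46.1 ± 2.15 RPKM in BC44 and 46.8 ± 1.02 in C57MG (SD, n = 2; log2 -0.02, limma adjusted p-value 0.839), with a 95% interval of -0.24 to 0.19, while Erbb2 and Grb7 on either side differed by 1.48 and 3.72. The other comparisons of Mien1 passed. BC44 minus HC11 was 0.40 for it (limma adjusted p-value 0.00958), beside 0.40 for Erbb2. HC11 minus C57MG was -0.43 for Mien1 (limma adjusted p-value 0.00431), beside 1.08 for Erbb2. Pgap3 was higher in BC44 than in C57MG by 0.90 (limma adjusted p-value 0.000445). Beside Erbb3 on chromosome 10, Pa2g4, which encodes an Erbb3-binding protein, was at 217.2 ± 25.2 RPKM in BC44, 155.6 ± 5.96 RPKM in HC11 and 94.3 ± 8.89 RPKM in C57MG, and Rps26 was at 1495 ± 79.1, 1142 ± 97.1 and 801 ± 40.5 RPKM (SD, n = 2). Both fell in the order of Erbb3 with smaller differences, at 1.19 and 0.90 between BC44 and C57MG. Dusp11 and Fam136a lie beside Tgfa on chromosome 6. Between BC44 and HC11 they differed by 0.18 and -0.19 (limma adjusted p-values 0.103 and 0.240), where Tgfa differed by -1.54. Both were lower in C57MG, as Tgfa was. BC44 minus C57MG was 1.18 and 0.83 for them (limma adjusted p-values 8.79e-06 and 0.000488), beside 1.35 for Tgfa. HC11 minus C57MG was 1.00 and 1.02, beside 2.90 for Tgfa. Sec61g and Eldr beside Egfr on chromosome 11 differed between BC44 and HC11 by 0.19 and 0.17 (0.0773 and 0.363). BC44 minus C57MG was -0.23 and -0.01 for them (limma adjusted p-values 0.0252 and 0.979). HC11 minus C57MG was -0.41 and -0.17 (limma adjusted p-values 0.00165 and 0.298), so Sec61g passed in both comparisons with C57MG. Pfdn1 and Ankhd1 beside Hbegf on chromosome 18 differed between BC44 and HC11 by -0.50 and 0.11 (0.00113 and 0.505), where Hbegf differed by -3.03.

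The genes with the most similar profiles were found by the root mean square difference of log2(RPKM + 1), centred on each gene's mean, over the 6 libraries. Plscr1 (0.38) and Glrx (0.42) were nearest to Areg, and Lif (0.42) and Serpina3h (0.54) to Ereg. Mmd (0.24) and Slit2 (0.25) were nearest to Hbegf, and Fzd3 (0.08) and Ivns1abp (0.10) to Tgfa. Tfap2c (0.13) and Cebpa (0.13) were nearest to Erbb3, both at or near 0 in C57MG. For Egfr and Erbb2 the nearest, Tns3 (0.05) and Zfp959 (0.07), and Galnt11 (0.06) and Gnmt (0.06), were 4 of many, since 989 and 173 genes lay within 0.2. No gene lay within 0.2 of Areg, Ereg or Hbegf. Areg and Ereg, neighbours on the chromosome, were 2.44 apart, farther than Areg and Hbegf (0.96), while Erbb2 and Erbb3 were 0.62 apart.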

How the data were processed

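The authors deposited 1 table of RPKM values for 11417 genes in 6 libraries, rounded to 3 decimals. STAR and build mm9 are named in the submitters' processing notes. The counter, annotation, gene lengths and use of strand are not given in the sources used here, so overlapping and antisense genes and near-identical copies are uncertain. All IDs matched GENCODE M21, used for exon lengths and gene order only.

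Depth was estimated as the total, searched from 10000000 to 22000000, at which RPKM times exon length gives whole reads. Between 74.9% and 82.9% of 181 to 297 low values per library lay within 0.15 reads of a whole number (30.0% by chance). Multiples of a total give whole reads too, so read numbers, floors of 3 reads and Poisson intervals are estimates that cover counting error only.

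For the tests, limma 3.58.1 (trend) in R 4.3.3 was run on log2(RPKM + 1), which understates changes of low genes, with all 6 libraries in 1 fit and no block. Genes needed at least 1 RPKM in at least 2 libraries (10759 tested, 658 not). Benjamini-Hochberg adjustment covered all tested genes per comparison (threshold 0.05, two-sided). Exact permutation of 2 against 2 libraries reaches 0.33 at the lowest and was not used. In data simulated for BC44 against HC11 with log2 changes of 1.5, 190 of 200 changed genes among 10262 were recovered, with 6 wrong calls. Noise was normal, the changed genes lay above a set mean level, and a smaller share changed than was called in the real data. The simulation therefore does not speak to low genes or smaller differences.

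The members and gene lists were chosen with earlier results of these data known. Named were the members, listed family genes, the 2 most changed called genes per list and comparison, nearest neighbours and profiles, and cell markers. The other Adam genes and Rhbdf1 were added after their values were seen. One gene that the rule names is not reported here. Alternatives were another pseudocount, 2 filters, 2 scalings, no trend, 4 libraries only, a replicate block, leaving out each library and a subtraction added later. Other software was Python 3.11.15 with scipy 1.17.1, matplotlib 3.10.9, pandas 2.3.3 and numpy 2.4.6.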

Additional observations from a re-analysis of the deposited data

How the results depend on the processing

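Of 312 values of the 7 members under the alternatives, 301 kept their direction and side of the threshold, 6 no longer passed, 2 newly passed and 3 changed direction. The 3 were Egfr, which passed under no alternative. Leaving out single libraries gave -0.34 to 0.13 for BC44 minus HC11 (above 0 without HC11 replicate 2) and -0.37 to 0.10 for HC11 minus C57MG (above 0 without HC11 replicate 1, and 0.01 without C57MG replicate 2). Members called ranged from 4 to 6 between BC44 and HC11, 5 to 6 between BC44 and C57MG, and 5 to 6 between HC11 and C57MG. With a mean of at least 5 RPKM, which leaves fewer genes to test, Erbb3 was not tested, and 1, 0 and 1 of the other family genes passed in the 3 comparisons, against 2, 2 and 2. Leaving out single libraries gave 1 to 2 of these genes in both comparisons with C57MG, since Epgn reached 1 RPKM in too few libraries without BC44 replicate 2 or HC11 replicate 2. Between BC44 and HC11 leaving out libraries gave 4 to 8 called traffic genes, 5 to 11 adaptors and 3 to 8 core genes; the cause was not tested. How many of all genes passed is given for the replicate block only, in the next paragraph. The counts under the other alternatives therefore do not set the members or lists apart from all genes. A pseudocount of 0.1 moved low genes most: Epgn to 3.82 and 3.64 against C57MG, Cblc to 5.40 and 5.64, and Grb7 to 6.76 for BC44 against C57MG.

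Replicate numbers come from the library titles, and same-numbered deviations correlated at 0.354 between BC44 and HC11, -0.039 between BC44 and C57MG and 0.038 between HC11 and C57MG across genes. The labels tie no number to a shared culture or day and the correlation is not found in every pair of lines, so the numbers were not taken to pair the libraries, although BC44 and HC11 replicates of 1 number deviated together. With the replicate block 5350, 7875 and 7721 genes passed, against 5129, 7713 and 7590, and 6, 6 and 6 members, against 5, 6 and 6, the addition being Erbb2 between BC44 and HC11 (0.40, limma adjusted p-value 0.0335). Errfi1 between BC44 and C57MG also passed with the block (-0.56, limma adjusted p-value 0.0130). Depth limits Ereg, Epgn and Erbb3 in C57MG.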
